A study of Oryza sativa with 12 samples.

Results

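Heat-stressed (HS) seedlings of 93-11, an Indica rice cultivar, were compared directly with HS seedlings of Nip (Nipponbare), a Japonica cultivar. The comparison covered 17744 genes of the 33780 identifiers listed for either cultivar. A gene was included if its LOC_Os identifier was listed for both cultivars and its expression was at least 1 FPKM, a fragment count scaled to gene length and sequencing depth, in at least 3 of the 6 HS libraries. Of the 23399 LOC_Os identifiers listed for both, 5655 did not reach this level. Of the genes included, 13808 reached 1 FPKM in all 6 HS libraries, 757 reached it in every 93-11 HS library and no Nip HS library, and 1911 reached it in every Nip HS library and no 93-11 HS library. These 757 and 1911 genes passed only through the cultivar in which they were high, so their difference is in part built into the choice.

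The 4 groups, each of 3 libraries from biological replicates, were 93-11 HS, Nip HS, 93-11 normal and Nip normal (the deposited files call the normal groups mock), made from the shoots (aerial parts) of seedlings 3 weeks old. Seedlings grew in culture solution with 10 h of light at 800 μmol m-2 s-1 and 14 h of dark. HS seedlings were then kept at 45 °C for 36 h, with a relative humidity above 80% and light of 60 to 80 μmol m-2 s-1, so both HS groups share low light and high humidity as well as heat. Poly(A) RNA was sequenced, and the reads of each cultivar were aligned to the genome of that cultivar. A cultivar difference therefore holds the difference in RNA together with any difference in gene length, gene model or mapping between the genomes, and these cannot be told apart within 1 condition. HS and normal libraries of a cultivar share 1 genome.

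In plants, heat unfolds proteins, and heat shock transcription factors switch on genes for molecular chaperones that keep proteins soluble and refold them. Prolonged heat also damages photosynthetic membranes and drains sugar reserves, and leaves adjust the expression of photosynthesis, storage and recycling genes. Cultivars of one species can differ both in the level of a gene before stress and in how far stress moves it. The files give identifiers with no gene names, and no name could be matched to a LOC_Os identifier in the reference table. Genes are therefore given by identifier, and families and tissue markers were not assessed. An identifier states the chromosome in its first digits.

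The libraries of each HS group lay close together and far from those of the other group. Over the 17744 genes, Pearson's r of log2(FPKM + 1) was 0.991 to 0.992 among the 93-11 HS libraries and 0.992 to 0.994 among the Nip HS libraries, but 0.669 to 0.671 between the 93-11 HS and Nip HS libraries. Between the normal libraries of both cultivars r was 0.855 to 0.859 over the same genes, which were chosen by their HS values. Genes are not independent replicates, so these correlations are descriptions. Replicates of a gene had a median SD of 0.0961 on this log2 scale in 93-11 HS and 0.0716 in Nip HS.

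Expression was concentrated in fewer genes in 93-11 HS seedlings. In the 93-11 HS libraries, 368 to 390 genes made up 50% of the summed FPKM, against 1085 to 1106 genes in the Nip HS libraries. The 10 highest genes held 13.4% to 14.0% of the sum in 93-11 HS and 9.55% to 9.71% in Nip HS. The median FPKM over all listed identifiers was 2.50 to 2.53 in 93-11 HS and 4.53 to 4.63 in Nip HS, although the summed FPKM was higher in 93-11 HS (794246 to 810922) than in Nip HS (552167 to 561203). In normal growth, 733 to 782 genes made up 50% of the sum in 93-11 and 607 to 618 in Nip. The HS groups did not overlap in any of these measures, but with 3 libraries a side the smallest two-sided p of an exact permutation test is 0.1.

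Under HS, 3143 genes were higher in 93-11 than in Nip and 5156 were lower. A gene was called when limma gave a Benjamini-Hochberg adjusted p under 0.01 and the log2 difference, 93-11 minus Nip on the log2(FPKM + 1) scale, was at least 1 in size. The called genes were 46.8% of those tested, 17.7% higher in 93-11 and 29.1% lower. Without the limit on size, 82.6% of the genes had an adjusted p under 0.01 in limma. The 3 libraries of one cultivar lay wholly apart from the 3 of the other for 88.8% of the genes, with 93-11 above in 6339 (35.7%) and below in 9419 (53.1%). The median log2 difference over all genes tested was -0.30, so an average gene was measured somewhat lower in 93-11 HS, and called differences include this offset. The differences were often large. A log2 difference of at least 3, which is 8-fold on this scale, was reached by 537 genes higher and 553 genes lower in 93-11, and one of at least 5 by 89 higher and 47 lower. On the other side, 1514 of the called genes were at a log2 size of 1 to 1.2, while 1595 genes with an adjusted p under 0.01 missed the call at a size of 0.8 to 1.

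**Figure D1:**
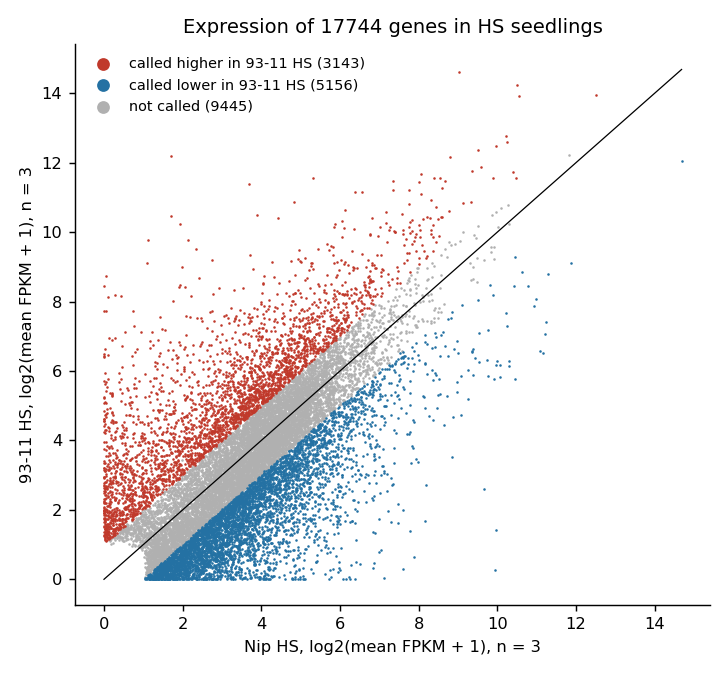
Mean expression of each gene in 93-11 HS seedlings (vertical axis) against Nip HS seedlings (horizontal axis), both as log2(mean FPKM + 1) of 3 libraries; each point is 1 gene and the line marks equal levels. The 3143 genes called higher in 93-11 are red and the 5156 called lower are blue; the point furthest right is a gene called lower, with a mean of 26348 FPKM in Nip HS.

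The balance of calls rested on how the libraries were scaled. With quantile normalization, 3641 genes were higher in 93-11 HS and 3622 lower, and with the median ratio 4024 were higher and 4040 lower. With each library rescaled to sum to 1000000, 2198 were higher and 7713 lower. The share of calls that were higher in 93-11 was 37.9% as deposited, 22.2% with the rescaled sum, 49.9% with the median ratio and 50.1% with quantile normalization. Of the 3143 genes higher in 93-11 as deposited, 3143 were called in the same direction with the median ratio, 2888 with quantile normalization and 2194 with the rescaled sum. Of the 5156 lower genes, 4040 were called in the same direction with the median ratio, 3408 with quantile normalization and 5156 with the rescaled sum.

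**Figure D2:**
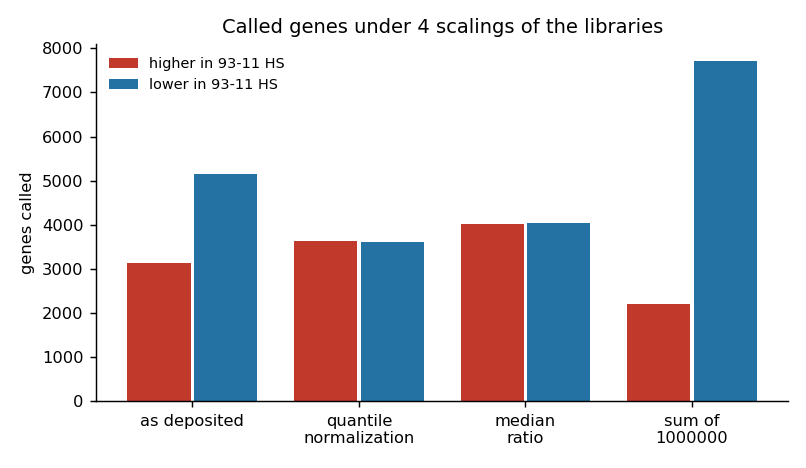
Number of genes called higher (red) and lower (blue) in 93-11 HS than in Nip HS with the values as deposited and under 3 rescalings of the libraries. As deposited there were 3143 and 5156 calls, and with each library rescaled to a sum of 1000000 there were 2198 and 7713.

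Among highly expressed genes, calls higher in 93-11 HS outnumbered lower ones, and among weakly expressed genes lower calls outnumbered higher ones except with quantile normalization. Among the 54 genes with a mean of at least 1000 FPKM over the 6 HS libraries, 35 were higher in 93-11 and 12 lower. At 100 to 1000 FPKM, 414 of 849 genes were higher and 138 lower, and at 20 to 100 FPKM 1142 of 4726 were higher and 860 lower. At 5 to 20 FPKM the order turned, with 891 of 6553 genes higher and 1935 lower. Below 5 FPKM, 661 of 5562 were higher and 2211 lower. At 100 FPKM and more, higher calls outnumbered lower ones under all 3 rescalings. Below 5 FPKM lower calls were in the majority with the median ratio (788 higher, 1759 lower) and the rescaled sum (549 higher, 3172 lower), but not with quantile normalization (1116 higher, 968 lower). At 20 to 100 FPKM the rescaled sum (717 higher, 1364 lower) and quantile normalization (1001 higher, 1007 lower) also turned the balance.

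The genes called higher in 93-11 took up much of the HS transcriptome of that cultivar. They summed to 56.0% to 56.5% of the FPKM in the 93-11 HS libraries and to 14.91% to 14.99% in the Nip HS libraries, a split that follows in part from how they were called. The normal libraries had no part in the calls, and there the same genes held 18.3% to 18.4% of the sum in 93-11 and 11.6% in each Nip library. The genes called lower held 4.92% to 5.01% of the sum in 93-11 HS and 36.7% to 36.9% in Nip HS. In normal growth these lower genes held 36.5% to 37.0% in 93-11 and 46.5% to 46.7% in Nip.

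**Figure D3:**
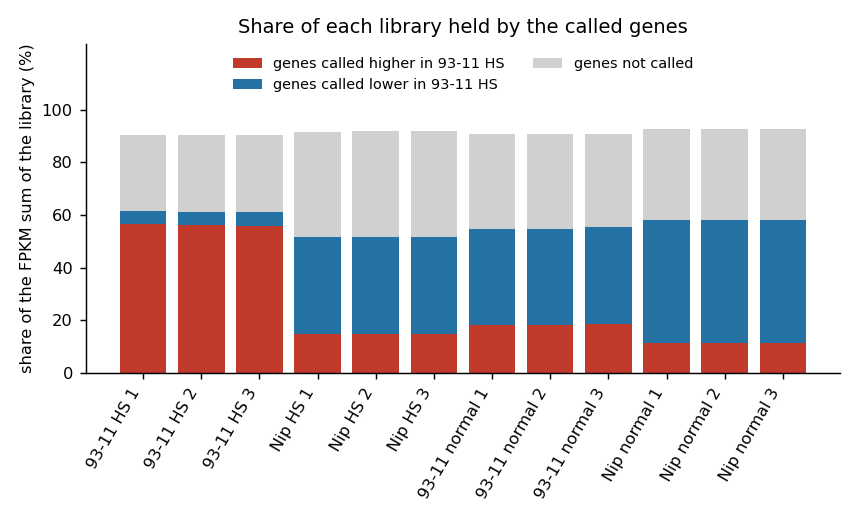
Share of the summed FPKM of each of the 12 libraries held by genes called higher in 93-11 HS (red), called lower (blue) and tested but not called (grey); the rest up to 100% is in identifiers outside the comparison. The red genes hold 56.0% to 56.5% in 93-11 HS and at most 18.4% in every other library.

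Most genes called under HS were not called in normal growth. In normal growth, the same test on the same 17744 genes called 1080 genes higher in 93-11 and 2252 lower, 18.8% of those tested. Of these normal calls 32.4% were higher in 93-11, against 58.6% with the rescaled sum, 57.2% with the median ratio and 55.2% with quantile normalization. The SD of the log2 difference over genes was 1.55 under HS and 0.99 in normal growth, and the median size of the difference was 0.93 under HS and 0.51 in normal growth. Across genes, the HS and normal differences, which share no library, correlated with r of 0.470 (Pearson) and rho of 0.324 (Spearman), given as a description over genes chosen by their HS values.

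Of the 3143 genes higher in 93-11 HS, 619 (19.7%) were also called higher in normal growth, 2381 (75.8%) were not called in normal growth, and 143 (4.55%) were called lower there. Of the 5156 genes lower in 93-11 HS, 1366 (26.5%) were also called lower in normal growth, 3631 (70.4%) were not called, and 159 (3.08%) were called higher there. Counted from normal growth, 59.6% of the 3332 genes called there kept the call under HS, 9.06% were called in the opposite direction and 31.4% were no longer called. The 8400 genes called in neither condition were 47.3% of those tested. These splits, and the counts drawn from them below, use the values as deposited and were not computed under the rescalings.

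A limma fit of all 12 libraries tested the interaction, that is, the cultivar difference under HS minus the cultivar difference in normal growth. The interaction was called at the same thresholds for 41.3% of the genes tested, in the positive direction for 3864 (21.8%) and in the negative direction for 3460 (19.5%). This balance also rested on the scaling, since with the rescaled sum it was positive for 1660 genes and negative for 7411. It was positive for 2060 of the 2381 genes higher in 93-11 HS and not called in normal growth. It was negative for 2430 of the 3631 genes lower in 93-11 HS and not called in normal growth. For the genes called in the same direction in both conditions the interaction was mostly not called, in 369 of 619 higher genes and 993 of 1366 lower genes. The interaction uses the HS libraries that made the calls, so these counts are not independent of them.

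Set side by side, the HS response of each cultivar, HS minus normal on the log2(FPKM + 1) scale, shows how far each cultivar was from its own normal level. These responses share the HS libraries with the calls and are given without a test. They use the values as deposited and were not computed under the rescalings. The summed FPKM was 582896 to 617044 in 93-11 normal and 794246 to 810922 in 93-11 HS. In Nip it was 785851 to 798491 in normal growth and 552167 to 561203 under HS. The medians and counts of the responses therefore depend on the scaling. For the 2381 genes higher in 93-11 HS but not called in normal growth, the median response was 1.57 in 93-11 and -0.16 in Nip. The response was at least 1 in 1694 of them in 93-11 and in 195 in Nip. For the 3631 genes lower in 93-11 HS but not called in normal growth, the median response was -1.44 in 93-11 and -0.06 in Nip. It was -1 or below in 2279 of them in 93-11 and in 722 in Nip. For the 1366 genes lower in both conditions, the median response was -0.36 in 93-11 and -0.29 in Nip. Over all 17744 genes the median response was 0.08 in 93-11 and -0.02 in Nip, with an SD over genes of 1.64 and 1.05.

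**Figure D4:**
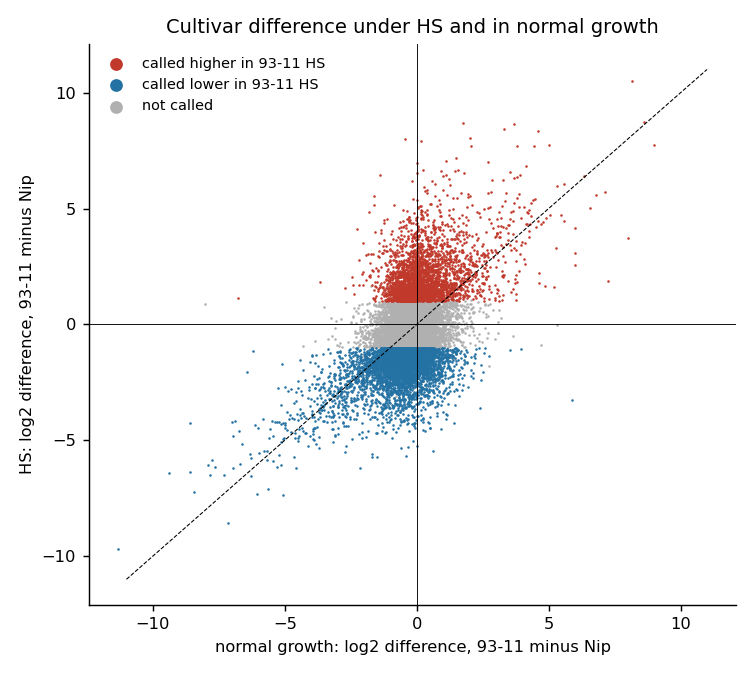
Log2 difference, 93-11 minus Nip, under HS (vertical axis) against that in normal growth (horizontal axis) for each gene, coloured by the HS call; on the dashed line both differences are equal. Most red and blue points lie above and below the centre, where the normal difference is small, and a tail of genes follows the dashed line, with r of 0.470 over all genes.

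The largest differences of all were mostly called in normal growth too, though often at another size. Of the genes with a mean of at least 10 FPKM and no overlap between the cultivars, the 12 with the largest difference in favour of 93-11 had log2 differences of 7.72 to 10.49. Of these, 10 were also called higher in normal growth, where 6.09% of all genes tested were. Their interaction was called positive for 10 of the 12 and negative for 1, beside 21.8% and 19.5% of all genes tested. The 12 with the largest difference in favour of Nip had log2 differences of -6.21 to -9.68. All 12 were called lower in 93-11 in normal growth as well, where 12.7% of all genes tested were. Their interaction was called positive for 5 and negative for 5, beside the same shares of 21.8% and 19.5%. These interactions use the HS values by which the genes were chosen.

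LOC_Os12g38300, on chromosome 12, had the largest difference in favour of 93-11. Its values were 5196, 4470.0 and 4301 FPKM in the 93-11 HS libraries, against 2.80, 1.57 and 2.45 FPKM in the Nip HS libraries. Every 93-11 HS library was thus far above every Nip HS library. The log2 difference was 10.49 (standard error 0.14, limma adjusted p = 7.25e-11). In normal growth the gene averaged 518 ± 43.0 FPKM in 93-11 and 0.858 ± 0.463 FPKM in Nip (SD, n = 3 each), so it was near silent in Nip in both conditions, while in 93-11 its HS level was well above its normal level.

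LOC_Os08g03590, on chromosome 8, was second. It had 1074, 1595 and 1550.1 FPKM in the 93-11 HS libraries, against 2.25, 2.33 and 2.13 FPKM in the Nip HS libraries, without overlap. The log2 difference was 8.74 under HS (standard error 0.14, limma adjusted p = 1.6e-10) and 8.62 in normal growth, and the interaction of 0.13 did not pass (limma adjusted p = 0.67). As deposited, the gap between the cultivars was thus of similar size in both conditions. The normal level was 1235 ± 366 FPKM in 93-11 and 2.06 ± 0.256 FPKM in Nip (SD, n = 3 each). With the rescaled sum the HS log2 difference was 8.42. Normal differences and interactions of single genes were taken only from the values as deposited, so whether this gap changes under other scalings was not tested.

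The largest differences in favour of Nip were both on chromosome 11. LOC_Os11g47980 had 0.236, 0.0814 and 0.269 FPKM in the 93-11 HS libraries, against 966, 970.2 and 994 FPKM in the Nip HS libraries (log2 difference -9.68, standard error 0.064, limma adjusted p = 9.98e-12). It was already almost absent in 93-11 in normal growth, at 1.52 ± 0.0564 FPKM, against 6418 ± 175 FPKM in Nip (SD, n = 3 each). On the log2(FPKM + 1) scale the gap was narrower under HS than in normal growth, with an interaction of 1.63 (limma adjusted p = 3.35e-10). The 93-11 HS values lay below 1 FPKM, where this scale understates a gap. With 0.1 added in place of 1, the HS log2 difference was -11.76, but the normal difference was not computed in this way. Whether the gap narrowed as a fold difference in FPKM was therefore not tested.

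LOC_Os11g14544 had 2.07, 1.38 and 1.57 FPKM in the 93-11 HS libraries, against 992, 987 and 1024 FPKM in the Nip HS libraries (log2 difference -8.56, standard error 0.084, limma adjusted p = 2.41e-11). Here the gap was wider under HS. The normal levels were 0.745 ± 0.167 FPKM in 93-11 and 249 ± 7.65 FPKM in Nip (SD, n = 3 each), and the interaction was -1.39 (limma adjusted p = 1.95e-07).

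Other genes differed little in normal growth and far more under HS. The 2 with the largest difference in each direction are given among genes whose normal difference was under 1 in size and not called and whose interaction was called, a choice made after the data were seen. Their interactions are therefore descriptions. For 3 of these 4 genes the normal libraries of the cultivars did not overlap either. LOC_Os11g47520, on chromosome 11, had 556, 563 and 529 FPKM in the 93-11 HS libraries, against 1.22, 1.15 and 1.08 FPKM in the Nip HS libraries. In normal growth it was at 0.516 ± 0.128 FPKM in 93-11 and 1.09 ± 0.163 FPKM in Nip (SD, n = 3 each). The gene was thus at about 1 FPKM or below in 3 of the 4 groups and far higher in 93-11 HS, with a log2 difference of 7.999 under HS and -0.46 in normal growth and an interaction of 8.46 (standard error 0.11, limma adjusted p = 1.56e-14).

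LOC_Os05g06380, on chromosome 5, had the same form. It had 281, 306 and 285 FPKM in the 93-11 HS libraries, against 0.139, 0.282 and 0.218 FPKM in the Nip HS libraries. Its normal levels were below 1 FPKM in both cultivars, at 0.614 ± 0.0816 FPKM in 93-11 and 0.446 ± 0.0805 FPKM in Nip (SD, n = 3 each). The HS log2 difference was 7.91 and the interaction 7.75 (standard error 0.11, limma adjusted p = 2.13e-14).

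In the other direction, LOC_Os06g12310, on chromosome 6, had 1.17, 2.27 and 2.95 FPKM in the 93-11 HS libraries, against 157, 160.4 and 153 FPKM in the Nip HS libraries. In normal growth both cultivars expressed it, at 178 ± 8.27 FPKM in 93-11 and 234 ± 6.84 FPKM in Nip (SD, n = 3 each). The gene was therefore low in 93-11 HS alone. The log2 difference was -5.70 under HS and -0.40 in normal growth, and the interaction was -5.31 (standard error 0.21, limma adjusted p = 9.89e-11).

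LOC_Os05g39990, on chromosome 5, was far lower in 93-11 HS than in the other groups. It had 1.61, 1.37 and 1.70 FPKM in the 93-11 HS libraries, against 112, 112 and 116 FPKM in the Nip HS libraries. Its normal level was higher in 93-11 (93.0 ± 1.89 FPKM) than in Nip (59.9 ± 0.338 FPKM; SD, n = 3 each), so the order of the cultivars turned round under HS. The interaction was -6.11 (standard error 0.068, limma adjusted p = 5.79e-15).

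**Figure D5:**
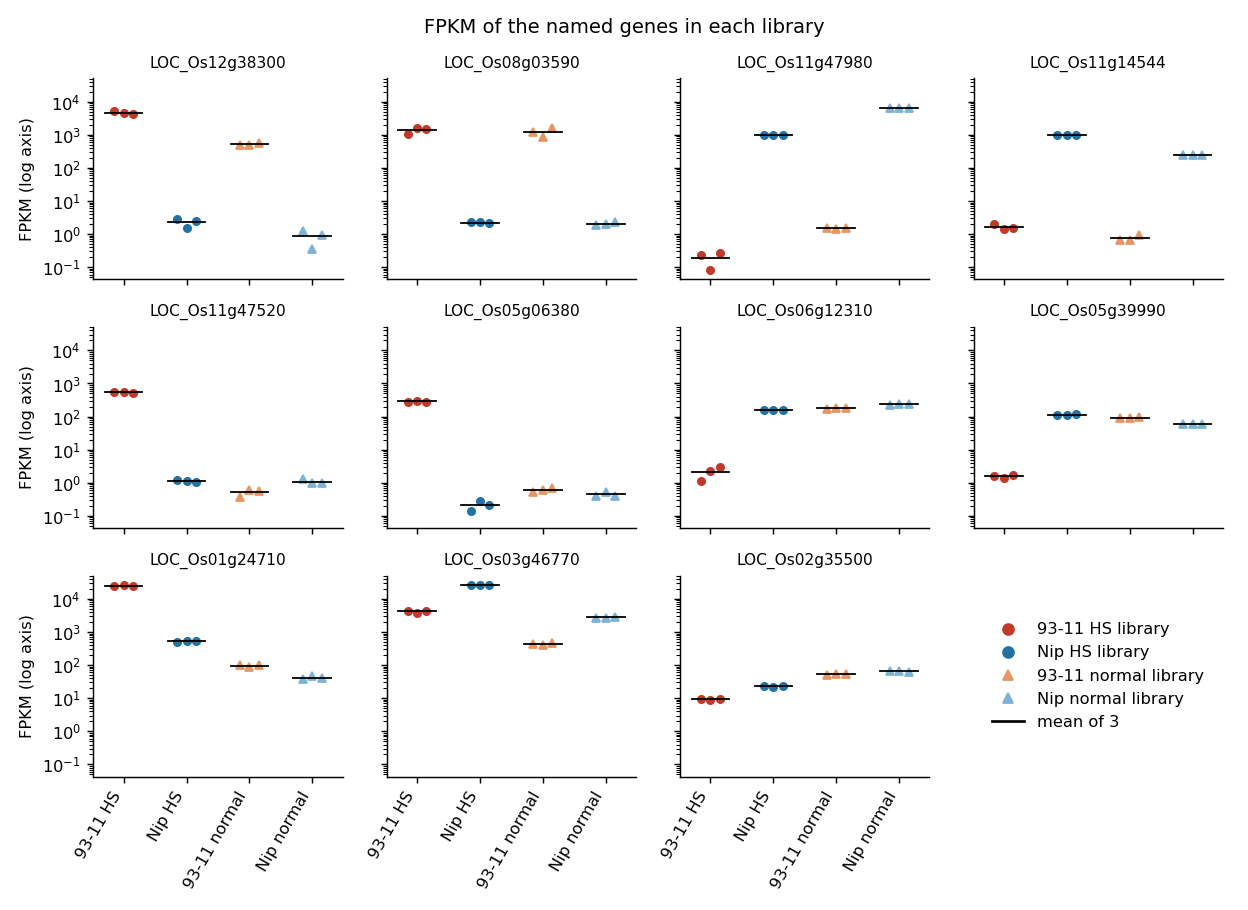
FPKM of the 11 genes named in the text in each of the 12 libraries (log axis); points are libraries and lines are means of 3. The top row shows gaps present in both conditions, such as LOC_Os08g03590 at 1074 to 1595 FPKM in 93-11 HS and 2.13 to 2.33 FPKM in Nip HS, and the middle row shows gaps that were under 1 in log2 size in normal growth.

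The most abundant transcripts of the cultivars under HS were largely different. Of the 10 genes with the highest mean in 93-11 HS and the 10 with the highest mean in Nip HS, 2 were shared. Of the 100 highest in each, 30 were shared, and of the 1000 highest 478. Ranked in 93-11 HS, 87 of the top 100 were called higher in 93-11, beside 17.7% of all genes tested. The ranking uses the same values. In the normal libraries, which the ranking did not use, 31 of these 100 were called higher in 93-11, where 6.09% of all genes tested were. Of the top 100 in Nip HS, 56 were called lower in 93-11 HS and 17 higher, beside 29.1% and 17.7% of all genes tested. This ranking, too, uses the same values. In the normal libraries 23 of the top 100 in Nip HS were called lower in 93-11, where 12.7% of all genes tested were.

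LOC_Os01g24710, on chromosome 1, had the highest mean in 93-11 HS. It reached 25341, 25601 and 24425 FPKM in the 93-11 HS libraries, against 514, 521 and 539 FPKM in the Nip HS libraries. Both HS groups were above their normal levels of 95.6 ± 8.42 FPKM in 93-11 and 42.4 ± 4.73 FPKM in Nip (SD, n = 3 each). The HS log2 difference was 5.58 (standard error 0.033, limma adjusted p = 8.99e-12). The gap was wider than in normal growth by an interaction of 4.42 (limma adjusted p = 6.57e-13).

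LOC_Os03g46770, on chromosome 3, had the highest mean in Nip HS. It had 4485, 3858 and 4344 FPKM in the 93-11 HS libraries, against 26070.4, 26914 and 26062 FPKM in the Nip HS libraries (log2 difference -2.64, standard error 0.056, limma adjusted p = 9.11e-10). Unlike the top gene of 93-11, it kept nearly the same log2 gap in normal growth, -2.68, with the values as deposited. Its normal levels were 434 ± 31.3 FPKM in 93-11 and 2771 ± 75.3 FPKM in Nip (SD, n = 3 each). With the rescaled sum the HS log2 difference was -3.18, and its normal difference was not taken from that scaling. The interaction of 0.03 did not pass (limma adjusted p = 0.723).

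Among the top 10 genes of 93-11 HS, 8 had a positive interaction, where 21.8% of all genes tested did, but the ranking uses HS values that enter the interaction. Besides LOC_Os01g24710 and LOC_Os12g38300, these were 6 genes with means of 5264 to 19508 FPKM in 93-11 HS, against 722 to 5869 FPKM in Nip HS. Among the top 10 of Nip HS, 6 had a negative interaction and 2 a positive one, again ranked by HS values. The 6 had means of 90.96 to 439 FPKM in 93-11 HS and 2034 to 2521 FPKM in Nip HS, whereas in normal growth they were at 1646 to 5824 FPKM in 93-11 and 3205 to 9325 FPKM in Nip. They were thus abundant in normal seedlings of both cultivars, and under HS their level in 93-11 was the lowest of the 4 groups.

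LOC_Os02g35500, which encodes glyoxylate reductase, an enzyme that detoxifies glyoxylate, is the gene that the study names. It had 9.74, 8.72 and 9.65 FPKM in the 93-11 HS libraries, against 23.3, 21.3 and 23.9 FPKM in the Nip HS libraries. The groups did not overlap, and the HS log2 difference was -1.20 (standard error 0.069, limma adjusted p = 4.03e-07). In normal growth the difference was smaller, -0.29, at 53.1 ± 2.08 FPKM in 93-11 and 65.2 ± 3.07 FPKM in Nip (SD, n = 3 each). The HS difference of this gene was close to the threshold. With the median ratio it was -0.91, short of a size of 1, and tested against a log2 difference of 1 its adjusted p was 0.0273 in limma.

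Some genes were near 0 in one cultivar under HS and well expressed in the other. At most 0.1 FPKM in all 3 Nip HS libraries and at least 10 FPKM in all 3 93-11 HS libraries was found for 37 genes, with a median level of 28.1 FPKM in 93-11 HS and a highest of 429 FPKM. The reverse, near 0 in all 93-11 HS libraries, was found for 40 genes, with a median of 22.0 FPKM in Nip HS and a highest of 139 FPKM. Most had a difference in normal growth too, since 28 of the 37 were called higher in 93-11 and 38 of the 40 lower. Over all genes tested, 6.09% were called higher in 93-11 in normal growth and 12.7% lower. By the same limits, 10 of the 37 and 10 of the 40 were near 0 against at least 10 FPKM in normal growth as well. The 37 lay on 11 of the chromosomes and the 40 also on 11.

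The called genes were spread over all 12 chromosomes at nearly even shares. The share called in either direction under HS was lowest on chromosome 3 (44.7%) and highest on chromosome 11 (49.9%), beside 46.8% over all genes. On chromosome 11, 165 of 873 genes were higher in 93-11 and 271 lower, and the median log2 difference was -0.44, the lowest of the chromosomes as deposited. In normal growth the shares were less even, at 15.4% on chromosome 2 and 25.0% on chromosome 11. The longest run of neighbouring tested identifiers called in one direction was 11 genes lower in 93-11, on chromosome 7, with a median log2 difference of -1.79. Of these 11 genes, 2 were called lower in normal growth, where 12.7% of all genes tested were. The longest run higher in 93-11 was 7 genes on chromosome 1, with a median log2 difference of 1.99. None of the 7 was called higher in normal growth, where 6.09% of all genes tested were. In runs this short, both counts lie near the shares over all genes.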

How the data were processed

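The authors deposited 1 FPKM value per gene and library for 12 libraries. Their text names STAR for alignment to the genome of each cultivar, featureCounts and DESeq2, whereas the submitters' processing notes name HISAT2 2.0.4, StringTie 1.3.4d and DESeq2; the genome build is not given in the sources used here. The files hold no counts. Among HS replicates at most 2.30% of low values shared the most common ratio, so whole reads could not be recovered, the counting depth is unknown, and precision rests on 3 replicates.

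Values were tested as log2(FPKM + 1) with limma 3.58.1 (trended prior, R 4.3.3), fitted on the 6 HS libraries, on the 6 normal libraries, and on all 12 for the interaction. The scale understates changes of low genes. Calls needed a Benjamini-Hochberg adjusted p under 0.01 over all 17744 genes and a log2 size of at least 1. On simulated data with 200 genes changed by a log2 of 2, the HS fit recovered 192 (1 wrong call). The simulation had normal noise, balanced directions, few changed genes and no offset between the groups. It therefore does not bear on errors from the scaling of the libraries.

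Alternatives were a pseudocount of 0.1, no filter, a filter of 5 FPKM, 3 rescalings, a replicate block, 1 fit of 12 libraries, a test against a log2 difference of 1, an adjusted p under 0.05, and each replicate left out. Genes named were, per direction, the 2 with the largest difference among called genes without overlap and with a mean of at least 10 FPKM, the highest gene of each HS group, and the gene the study names; the 4 genes with a small normal and a large HS difference were added after the data were seen. Lists of gene families were drawn up but not used, because no source pairs the identifiers with names. The members and lists were chosen with earlier results of these data known. Tables and figures used Python 3.11.15.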

Additional observations from a re-analysis of the deposited data

Results flagged for a closer look

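For 9 of the 11 named genes the interaction of cultivar and condition had an adjusted p under 0.01 in limma over 12 libraries, and for 8 of these it was also at least 1 in size, as for 41.3% of all genes tested. For 4 of the 8 the choice of genes fixed it. The interaction, the log2 difference under HS minus that in normal growth, was 8.46 for LOC_Os11g47520 and 7.75 for LOC_Os05g06380, which were chosen for a called interaction with a normal difference under 1 in size, as were LOC_Os05g39990 at -6.11 and LOC_Os06g12310 at -5.31. It was 4.42 for LOC_Os01g24710, the top gene of 93-11 HS, and 2.33 for LOC_Os12g38300. For LOC_Os11g47980 it was 1.63, a narrower gap in favour of Nip under HS on the log2(FPKM + 1) scale. Its 93-11 HS values were below 1 FPKM, and whether the gap narrowed as a fold difference in FPKM was not tested. For LOC_Os11g14544 it was -1.39, so that a gap in favour of Nip was wider under HS. For LOC_Os02g35500 it was -0.91 (limma adjusted p = 3.4e-07). All these interactions use the values as deposited, and those of single genes were not compared between scalings.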

How the results depend on the processing

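Of 176 log2 differences of the named genes under alternatives, 175 kept their direction and their side of the adjusted p threshold. The exception was LOC_Os02g35500 in the test against a log2 difference of 1. Most of these genes were chosen from the same values for large differences, and several alternatives leave the log2 difference unchanged. This tally was therefore in large part fixed by the choice of genes. With a replicate left out, 3110 to 3153 genes were higher in 93-11 HS and 5098 to 5169 lower. Numbers of genes stayed within 1.5 times in 38 of 46 cases, among them all those of the HS comparison. The others were all due to scaling. In normal growth 1933 genes were higher in 93-11 and 1366 lower with the rescaled sum, 1653 and 1341 with quantile normalization, and 1726 and 1289 with the median ratio. With the rescaled sum the interaction was positive for 1660 genes and negative for 7411. Under HS, the median log2 difference over genes was -0.30 as deposited, -0.80 with the rescaled sum, -0.06 with quantile normalization and -0.04 with the median ratio. Replicate numbers were not taken to pair libraries of different cultivars. Deviations of same-numbered libraries from their group means correlated with an r of -0.054 to -0.010 under HS and 0.007 to 0.052 in normal growth. For libraries with different numbers, r was -0.033 to 0.061 under HS and -0.041 to 0.012 in normal growth. With the replicate block 3143 genes were higher and 5162 lower under HS, and 1081 and 2257 in normal growth. A gene low in one cultivar in both conditions cannot be told apart from one whose reads were lost in mapping to that genome.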

Other observations

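Neighbouring identifiers were called in opposite directions under HS less often than in the same direction. The pairs counted were 11545 pairs of tested identifiers that follow each other with numbers at most 20 apart. Of these, 1530 pairs (13.3%) were called in the same direction and 863 (7.48%) in opposite directions. Over all genes tested, 17.7% were called higher in 93-11 HS and 29.1% lower. In 15 pairs both log2 differences were at least 3 in size and opposite, and in 5 of these both genes were called in the same directions in normal growth. The source of these pairs was not tested.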
